A study of Mus musculus with 2 samples.

Results

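Mast cell barcodes were found among droplets that the deposited cell annotation leaves out. They are 110 of the 16291 barcodes of library 2 with at least 500 gene UMIs (unique molecular identifiers), and 110 of the 3018 of these that the annotation lacks and that carry a clear hashtag. Barcodes were chosen by 3 conditions: absence from the annotation, 1 hashtag with at least 85% of the hashtag UMIs, and at least 10 UMIs of Cpa3, which encodes the mast cell carboxypeptidase. The Cpa3 values that chose them ran from 10 to 166 UMIs, with a median of 25.5. Of the members, 18 held 10 to 14 UMIs. Just outside, 9 clear-hashtag unannotated barcodes held 5 to 9 UMIs, 63 held 1 to 4 and 2836 held 0.

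The study sorted CD45+ leukocytes from MC38 tumours, a mouse colon carcinoma line, implanted subcutaneously in mice labelled hFcgR, for human Fcγ receptors. Antibodies to mouse GITR, a costimulatory receptor encoded by Tnfrsf18, had human IgG1 Fc variants and were given at 100 µg per mouse, 2 injections 3 days apart, with PBS as control and cells taken 4 days post treatment. Mice were assigned by hashtag, since each hashtag matched 1 run of the annotation in 10476 of 10476 annotated cells. All groups share the tumour line and the human receptors, the labels state 3 mice per treatment, and mice were pooled by cell hashing. Library 2 held 2 GA-aFuc mice (annotated as an agonist with an enhanced Fc), 2 GITR/Syn GA-aFuc mice (non-agonist, enhanced Fc), 1 N297A mouse (agonist, null Fc) and 1 Untreated mouse. The matrix of library 1 was not analysed here. GA-aFuc 1 and GITR/Syn GA-aFuc 1 were female by their RNA (Xist at 630 and 609 CPM, UMIs per 1000000 gene UMIs of mast barcodes, the unit of all levels below unless another is named) and the other 4 mice had 0 Xist UMIs there, so sex was mixed in the GA-aFuc and GITR/Syn GA-aFuc groups and the N297A and Untreated mice were both male.

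Mast cells are tissue-resident granulocytes that hold proteases, histamine and heparin in granules and release them when antigen cross-links IgE on their high-affinity receptor FcεRI. Growth and survival depend on the receptor Kit, and GATA2 and MITF are central regulators of their genes. In mice, a connective tissue type stores the chymases Mcpt4 and Cma1 and tryptase, and a mucosal type stores the chymases Mcpt1 and Mcpt2.

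The other 5 markers of mast cells, which the rule did not count, were present in most barcodes. Of 110 mast barcodes, 55 held UMIs of all 5 (Mcpt2, Cma1, Gata2, Kit and Ms4a2), 44 of 4, 9 of 3 and 2 of 2. Among 10476 annotated cells of library 2, 2 held 3 of them and 0 held more. No annotated cell reached 10 Cpa3 UMIs, and the highest had 3. Since the rule chose these barcodes on RNA, all differences from other cell types are given as description, with no test.

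Genes of most other leukocytes were at or near 0. The T cell list had 14 UMIs over 8 genes with Cd3e at 0, the B cell list 1 UMI over 4 genes with Cd79a at 0, the neutrophil list 3 UMIs over 5 genes with S100a8 at 0, and the dendritic cell list 2 UMIs over 7 genes. The eosinophil list and the tumour epithelial list had 0 UMIs, a count that allows up to 3 UMIs over all mast barcodes. Of 4 genes listed for basophils, 3 were rare, with Mcpt8 in 3 barcodes, Prss34 in 1 and Itga2 in 6. The fourth, Cd200r3, which mast cells also express, was in 88 and gave 197 of the list's 213 UMIs. The monocyte list had 54 UMIs in 22 barcodes, and its summed level reached 298 CPM in GITR/Syn GA-aFuc 1. Macrophage genes were more abundant: 8 of 9 were present with 739 UMIs, and their summed level per mouse ran from 456 to 3305 CPM, against a median of 22751 in macrophages. At least 5 UMIs of C1qa, C1qb, C1qc and Cd3e together were found in 5 barcodes, called possible doublets here. The NK cell list had 40 UMIs, of which 35 were Gzma.

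Mast barcodes were shallower than annotated cells. The median was 4950 gene UMIs (range 1334 to 22351) and 1685.5 genes, against 12075 UMIs and 3518.5 genes in annotated cells of library 2. The mitochondrial share had a median of 2.63% in mast barcodes and 1.77% in annotated cells. A total of 626 annotated cells (5.98%) lay below the mast median of UMIs. The 2 libraries shared 34 annotated barcodes, and 0 mast barcodes matched a library 1 cell.

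Mast barcodes were found in every mouse. Numbers were 22 and 25 under GA-aFuc, 14 and 19 under GITR/Syn GA-aFuc, 12 under N297A and 18 for Untreated. As a share of all barcodes with a clear hashtag, this was 0.976% and 1.16% under GA-aFuc, 0.657% and 0.824% under GITR/Syn GA-aFuc, 0.522% under N297A and 0.825% for Untreated. Both GA-aFuc mice were above all other mice, and both GITR/Syn GA-aFuc mice lay between the N297A mouse and the Untreated mouse. The mean share under GA-aFuc was 1.07% ± 0.128, and that under GITR/Syn GA-aFuc was 0.741% ± 0.118 (SD, n = 2 each). The exact two-sided permutation test over 4 treatments gave p = 0.178, where 180 arrangements allow no p below 0.0222. The exact 95% binomial (Clopper-Pearson) intervals of single mice, which cover counting error only, ran from 0.613% to 1.47% in GA-aFuc 1 and from 0.270% to 0.910% in the N297A mouse, and thus overlapped.

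**Figure D1:**
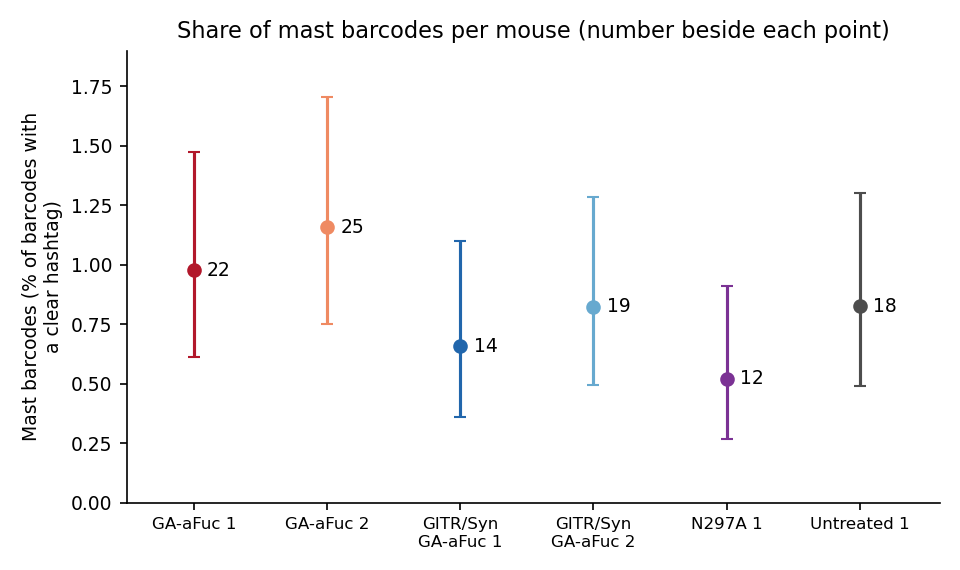
Mast barcodes as a percentage of all clear-hashtag barcodes (y axis) in each of 6 mice (x axis), with exact 95% binomial intervals and the number of mast barcodes beside each point. The GA-aFuc mice have the highest shares, 0.976% and 1.16%, and all intervals overlap.

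When members were taken by at least 3 of the other 5 markers instead of Cpa3, 133 barcodes qualified and the shares were 1.20% and 1.20% under GA-aFuc, 0.892% and 0.911% under GITR/Syn GA-aFuc, 0.739% under N297A and 1.05% for Untreated. The exact permutation test then gave p = 0.0222, its lower limit here. The 25 barcodes that this definition adds had a median of 2360 UMIs and 2 Cpa3 UMIs.

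Granule proteases took a large share of the RNA. The 7 main ones were Cpa3, Mcpt1, Mcpt2, Mcpt4, Cma1, Tpsb2 and Tpsab1. Cpa3 chose the barcodes, so the summed share is in part set by the rule. Together they took 9.54% of all UMIs, with 10.93% and 10.95% under GA-aFuc, 7.64% and 8.02% under GITR/Syn GA-aFuc, 8.17% under N297A and 9.98% for Untreated. Single barcodes ran from 2.52% to 18.8%. Mcpt2, a chymase of the mucosal type, was the most abundant at 35424 CPM over all mast barcodes and had a UMI in 109 of 110. It stood at 40305 and 37709 CPM under GA-aFuc, 29135 and 25065 under GITR/Syn GA-aFuc, 40922 under N297A and 36453 for Untreated. GITR/Syn GA-aFuc mice were the lowest for this gene. The connective tissue chymases followed, Cma1 at 16120 and Mcpt4 at 13599 CPM, each with a UMI in all 110 barcodes. Cma1 stood at 16999.8 and 22032 CPM under GA-aFuc, 12455 and 14716 under GITR/Syn GA-aFuc, 12919 under N297A and 12032 for Untreated. Mcpt4 stood at 20166 and 15657 under GA-aFuc, 9370.3 and 12505 under GITR/Syn GA-aFuc, 8966 under N297A and 10555 for Untreated. For both genes the GA-aFuc mice were above all others. No protease was called between treatments under the main settings. The share of all tested genes with such orders of mice, for these genes or for Mcpt2, is not given here. Tpsb2, the main tryptase, was at 10058 CPM in 110 barcodes, Tpsab1 at 875 in 99 and Tpsg1 at 197 in 56. Mcpt9 with 7 UMIs and Ctsg, cathepsin G, with 11 were close to absent.

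Mcpt1, the other mucosal chymase, was unlike Mcpt2, Cma1 and Mcpt4 in that 31 barcodes held none. It stood at 16317 and 13047 CPM under GA-aFuc, 14528 and 10273 under GITR/Syn GA-aFuc, 3589 under N297A and 22613 for Untreated. The N297A and Untreated mice were thus the extremes. Outside mast barcodes the medians over mice were below 10 CPM for Mcpt1, Mcpt4 and Tpsb2 in macrophages, monocytes, CD8 T cells and NK cells. In droplets with little RNA, Mcpt2 was at 84.99 CPM.

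**Figure D2:**
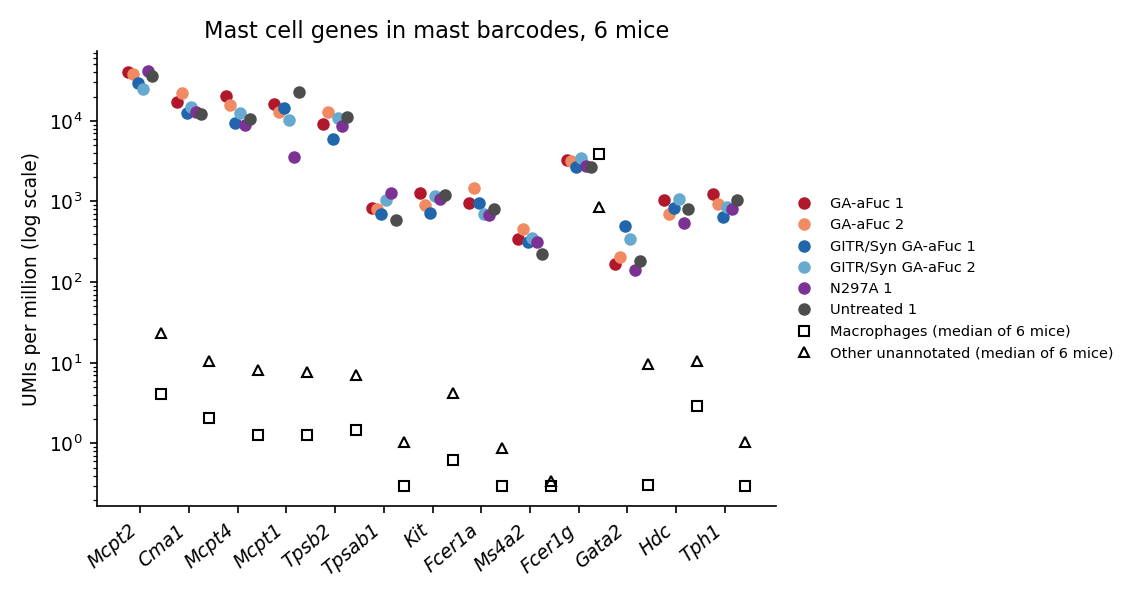
CPM (log scale, y axis) of 13 mast cell genes (x axis) in mast barcodes of 6 mice (filled circles, 1 colour per mouse) and the median over 6 mice in macrophages (squares) and other unannotated barcodes (triangles); values near or at 0 are drawn at the axis floor. Every gene but Fcer1g is far above the other cell types in all 6 mice, and Mcpt1 is lowest in the N297A mouse (3589).

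Several of the protease genes, Cpa3 not among them, are neighbours: in the RefSeq gene order, Cma1, Cma2, Mcpt1, Mcpt2, Mcpt9, Mcpt4, Mcpt8 and Ctsg follow each other on chromosome 14. Promoters of the 3 chymases whose levels are compared next, and of Cpa3 as the gene that chose the barcodes, are shown here from RefSeq (GRCm38.p6, 250 bases before to 50 after the annotated start, 5′ to 3′). Capitals mark GATAA or its reverse complement TTATC, the core bound by GATA factors, searched on both strands.
Cma1, chr14:55944626-55944925, minus strand: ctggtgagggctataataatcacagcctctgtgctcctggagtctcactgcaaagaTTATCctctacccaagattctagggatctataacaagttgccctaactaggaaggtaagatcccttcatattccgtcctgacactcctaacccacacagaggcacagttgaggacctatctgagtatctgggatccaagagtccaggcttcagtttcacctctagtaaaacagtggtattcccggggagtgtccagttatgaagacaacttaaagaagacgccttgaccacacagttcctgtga
Mcpt4, chr14:56062261-56062560, minus strand: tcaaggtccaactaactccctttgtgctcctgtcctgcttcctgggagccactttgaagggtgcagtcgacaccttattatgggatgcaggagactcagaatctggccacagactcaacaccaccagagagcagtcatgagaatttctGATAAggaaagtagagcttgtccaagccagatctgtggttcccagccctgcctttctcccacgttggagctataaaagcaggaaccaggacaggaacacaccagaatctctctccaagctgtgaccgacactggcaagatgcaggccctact
Mcpt1, chr14:56017714-56018013, plus strand: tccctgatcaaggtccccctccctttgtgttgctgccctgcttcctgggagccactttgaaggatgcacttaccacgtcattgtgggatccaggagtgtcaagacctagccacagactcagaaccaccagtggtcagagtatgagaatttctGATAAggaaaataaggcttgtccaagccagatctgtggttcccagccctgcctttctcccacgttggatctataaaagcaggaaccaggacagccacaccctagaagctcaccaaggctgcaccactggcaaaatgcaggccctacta
Cpa3, chr3:20242132-20242431, minus strand: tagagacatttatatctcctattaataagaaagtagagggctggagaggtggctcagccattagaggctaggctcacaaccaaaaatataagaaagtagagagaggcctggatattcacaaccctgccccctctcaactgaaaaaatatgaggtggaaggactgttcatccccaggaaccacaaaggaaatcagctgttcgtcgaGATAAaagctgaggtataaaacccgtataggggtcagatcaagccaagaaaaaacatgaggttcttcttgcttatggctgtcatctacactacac
Each promoter holds 1 match, at -194 to -190 in Cma1, -102 to -98 in Mcpt4, -98 to -94 in Mcpt1 and -45 to -41 in Cpa3, with 0 at the annotated start. Of the 12 listed proteases, 8 had a promoter in the RefSeq set, and 5 of these 8 hold a match. Of all 32851 promoters in the table, 25.4% hold at least 1, so that a match is a description and not a site. The Mcpt4 and Mcpt1 promoters were 80.6% identical in a global alignment and shared an unbroken run of 53 bases, from -87 to -35 in Mcpt4 and from -83 to -31 in Mcpt1. Cma1 was 47.7% identical to Mcpt4 and 47.7% to Mcpt1, close to its 48.8% with Cpa3. In the last 300 bases of their longest annotated transcripts, where 3′ counts arise, these chymases with Mcpt2 shared runs of at most 21 bases. Mcpt4 and Cma2 shared 61 there, so their counts may be split with less certainty.

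Across barcodes, Mcpt1 varied in the opposite direction to Cma1 and Mcpt4. This was seen in these data first and is described with no test; the 110 points come from 1 library and share its depth. Cma1 and Mcpt4, per UMI of the barcode, had a Spearman correlation of 0.69, with 0.27 to 0.89 within single mice. Mcpt1 had a correlation of -0.58 with Cma1 (-0.73 to -0.21 within mice) and -0.35 with Mcpt4 (-0.70 to -0.11 within mice). With Mcpt2 it was 0.30, positive in 5 of 6 mice. The Spearman correlation with the number of UMIs was -0.05 for Mcpt1, 0.03 for Cma1 and -0.02 for Mcpt4.

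At the median of Mcpt1, 29.2 per 10000 UMIs, the barcodes split into 55 high-Mcpt1 and 55 low-Mcpt1 barcodes, and 11 lay within a factor of 2 of it. It was chosen after values were seen. The split is a range of 1 measure and not a cell type. Barcodes above the median of Mcpt1 numbered 10 of 22 and 9 of 25 under GA-aFuc, 9 of 14 and 9 of 19 under GITR/Syn GA-aFuc, 4 of 12 under N297A and 14 of 18 for Untreated. Cma1 was at 11217 CPM in high-Mcpt1 barcodes and 20516 in low-Mcpt1 barcodes, lower in the high ones in 6 of 6 mice. In high-Mcpt1 barcodes Mcpt4 was at 10491 and Fcer1g at 2616, against 16386 and 3434 in low-Mcpt1 barcodes, each lower in high-Mcpt1 barcodes in 6 of 6 mice. Mcpt2 ran the other way, at 39986 in high-Mcpt1 barcodes and 31334 in low-Mcpt1 barcodes, higher in high-Mcpt1 barcodes in 6 of 6 mice. FCGR2A was at 278 in high-Mcpt1 barcodes and 600 in low-Mcpt1 barcodes, lower in high-Mcpt1 barcodes in 6 of 6 mice. The split and the correlations with Mcpt1 use the same values in the same barcodes, so the split adds no support to the correlations.

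Other genes followed this axis. The lowest correlations with Mcpt1 after Cma1 were those of Pla2g7, a phospholipase that inactivates platelet-activating factor (-0.55), Lsamp, a cell adhesion protein of neurons (-0.53), Speer4e (-0.49) and human FCGR2A (-0.44). The highest were Litaf, a regulator of endosomal sorting (0.44), Sat1, which acetylates polyamines (0.41), Thsd4 (0.40) and Sox5 (0.38). Pla2g7 was at 107 CPM in high-Mcpt1 barcodes and 520 in low-Mcpt1 barcodes, and Lsamp at 96.1 in high-Mcpt1 barcodes and 370 in low-Mcpt1 barcodes. Litaf was at 214 in high-Mcpt1 barcodes and 73.4 in low-Mcpt1 barcodes, and Sox5, a transcription factor, at 594 in high-Mcpt1 barcodes and 278 in low-Mcpt1 barcodes. These genes were picked by their correlation with Mcpt1 in the same barcodes, so their levels in the split add no support. Cpa3 chose the barcodes, so its values among them are cut off from below and likeness to it is only a description. By the same measure, the 10 genes most like Cpa3 over the 2810 genes found in at least 20% of mast barcodes began with Tpsb2 (0.45), Cma1 (0.39), Mrgprb1 (0.37), a receptor of the Mas-related family, and Slc31a2 (0.37), a copper transporter. They went on with Pla2g7 (0.33), Adk (0.32), Lsamp (0.32), Gm9758 (0.30), Il1rl1 (0.30) and Kdelr1 (0.29).

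**Figure D3:**
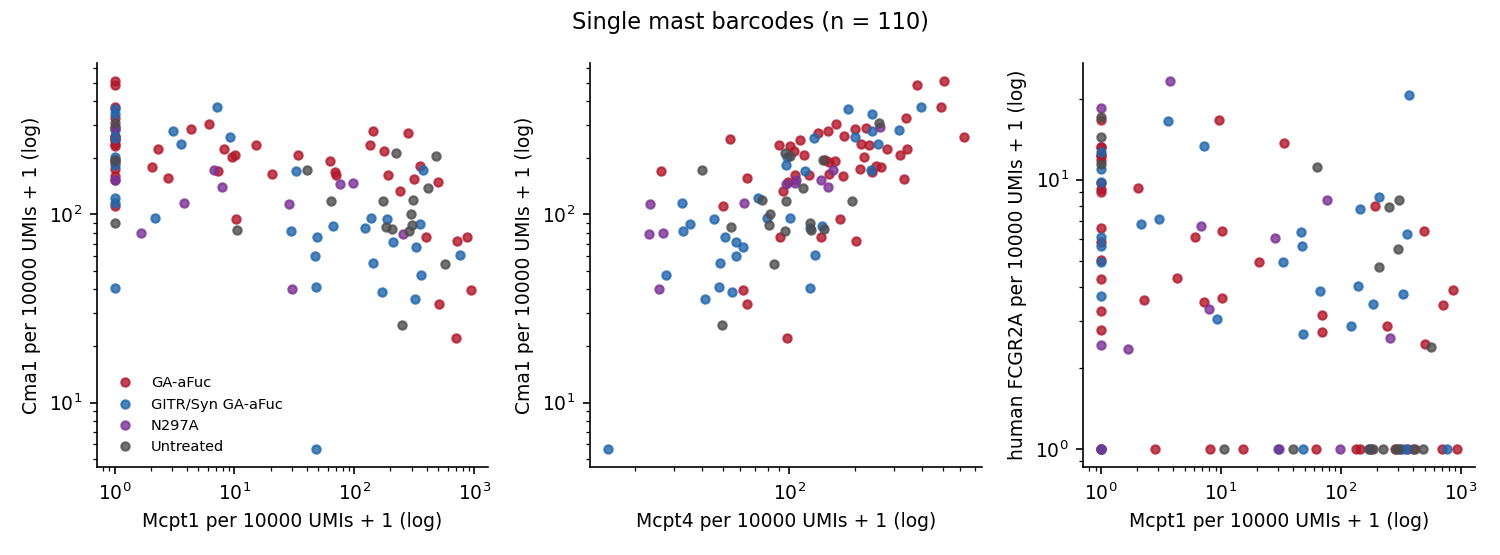
Levels per 10000 UMIs plus 1 (log axes) in each of 110 mast barcodes, coloured by treatment: Cma1 against Mcpt1 (left), Cma1 against Mcpt4 (middle) and human FCGR2A against Mcpt1 (right). Cma1 falls along Mcpt1 (correlation -0.58) and climbs along Mcpt4 (correlation 0.69), and barcodes of all 4 treatments are spread over the plots.

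The receptors that define mast cells were present in all mice. Kit, the stem cell factor receptor, had a UMI in 107 of 110 barcodes and stood at 1268 and 905 CPM under GA-aFuc, 726 and 1181 under GITR/Syn GA-aFuc, 1082 under N297A and 1201 for Untreated. The α chain of FcεRI, Fcer1a, was found in 99 barcodes, the β chain Ms4a2 in 94 and the shared γ chain Fcer1g in 110. All 3 chains were present in 85 barcodes and in 0 annotated cells. Fcer1a stood at 949 and 1460 CPM under GA-aFuc, 959 and 704 under GITR/Syn GA-aFuc, 682 under N297A and 818 for Untreated, and the ranges overlapped. Il1rl1, the IL-33 receptor, was in 103 barcodes at 999 CPM, Cd200r3 in 88 and Csf2rb, the common β chain of cytokine receptors, in 81. Mrgprb2, the receptor for cationic drugs and peptides, was in 44. Of signalling genes downstream of FcεRI, Lat was in 88 barcodes and Lat2 in 100, while Syk had 17 UMIs. Gata2 was in 62 barcodes, at 168 and 205 CPM under GA-aFuc, 492 and 347 under GITR/Syn GA-aFuc, 141 under N297A and 185 for Untreated. The GITR/Syn GA-aFuc mice were the highest for Gata2, which was not called between treatments under the main settings. How many of all tested genes show such an order is not given here. Mitf was in 54 barcodes and Gata1 in 13.

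Genes for making and storing histamine, serotonin and leukotrienes were present. Hdc, which makes histamine, was in 85 barcodes at 829 CPM, and Tph1, the first enzyme of serotonin synthesis, in 98 at 935. The median of Tph1 was 0.237 CPM in macrophages and 0.406 in NK cells. Slc18a2, which loads amines into granules, was in 58. Srgn, the core protein of granule proteoglycans, and Cd63, a granule membrane protein, were in all 110 at 3745 and 3624. Alox5 and Alox5ap, the 5-lipoxygenase and its activating protein, were at 236 and 1173 CPM, and Hpgds, a prostaglandin D synthase, was at 318. Ptgs2, the inducible cyclooxygenase, had 3 UMIs, and Ptges and Ptgds had 0.

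Chemokine RNA was high. Ccl7, a monocyte attractant, was in 100 barcodes at 7453 CPM, and Ccl2, its close relative, in 108 at 4701, against medians of 559 and 637 in macrophages. Ccl7 stood at 7680 and 8344 CPM under GA-aFuc, 3175 and 8171 under GITR/Syn GA-aFuc, 7189 under N297A and 9117 for Untreated. Ccl2 stood at 4265 and 4697 under GA-aFuc, 2462 and 4768 under GITR/Syn GA-aFuc, 5353 under N297A and 6821 for Untreated. For both, GITR/Syn GA-aFuc 1 was the lowest mouse and the Untreated mouse the highest. At an equal depth of 1000 UMIs per barcode, 90.0% of mast barcodes had a Ccl2 UMI (unthinned 98.2%), against 34.5% of macrophages, 2.48% of NK cells and 1.85% of CD8 T cells.

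Ccl4 and Ccl3, inflammatory chemokines, were found in fewer barcodes, 59 and 33. Ccl4 stood at 967 and 2358 CPM under GA-aFuc, 1892 and 2037 under GITR/Syn GA-aFuc, 3553 under N297A and 2203 for Untreated. Ccl1, a ligand of CCR8, was in 32 barcodes, at 638 and 377 under GA-aFuc, 298 and 325 under GITR/Syn GA-aFuc, 235 under N297A and 1016 for Untreated. Of its 279 UMIs, 49 came from 1 barcode of the Untreated mouse. Tnf was in 83 barcodes at 803 CPM, Il6 in 39, Il4 in 32 and Il13 in 38. Il13, a type 2 cytokine, stood at 177 and 238 CPM under GA-aFuc, 64.8 and 195 under GITR/Syn GA-aFuc, 365 under N297A and 699 for Untreated. The 4 mice with an Fc-enhanced antibody were below the other mice, and 34 of the 163 UMIs came from 1 barcode of the Untreated mouse. How many of all tested genes show this order is not given here. Il5 and Il9 had 0 UMIs, and Csf2 had 10 in 3 barcodes.

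**Figure D4:**
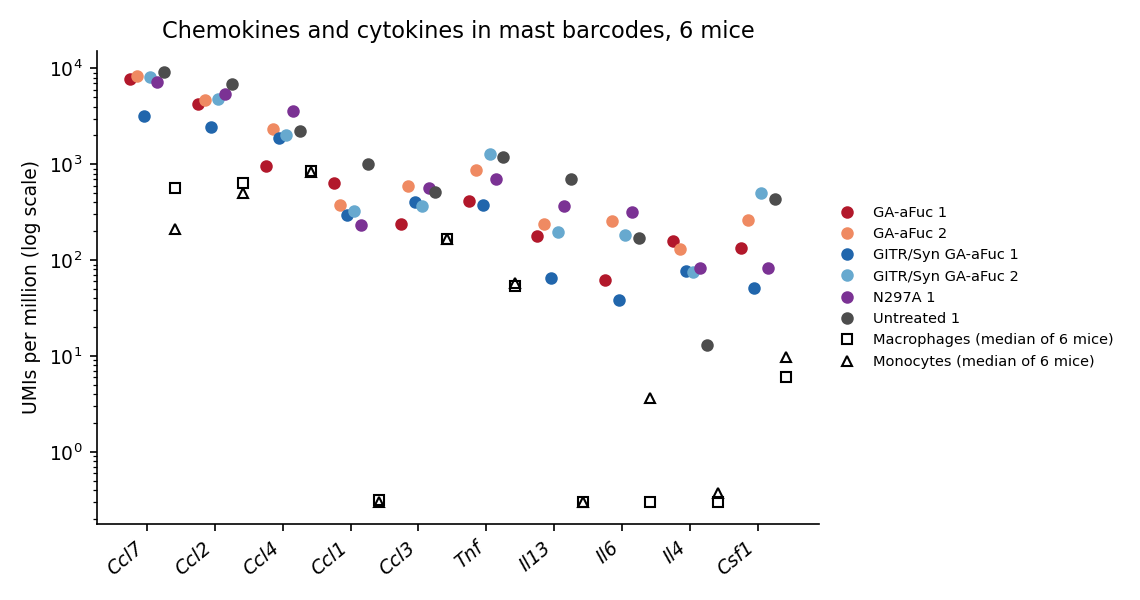
CPM (log scale, y axis) of 10 chemokine and cytokine genes (x axis) in mast barcodes of 6 mice (filled circles) and the median over 6 mice in macrophages (squares) and monocytes (triangles); values near or at 0 are drawn at the axis floor. Ccl1, Il13, Il6 and Il4 stand near or under 4 CPM in macrophages and monocytes, and Il13 is highest in the Untreated mouse (699).

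Chemokines varied together in pairs over barcodes. The Spearman correlation was 0.57 for Ccl2 and Ccl7 and 0.65 for Ccl3 and Ccl4, positive in 6 of 6 mice in both cases. Ccl2 was also linked with Plk3 (0.50), Egr3 (0.48), Junb (0.46) and Csf1 (0.42), and Ccl4 with Tnf (0.44). The lowest correlations of Ccl4 were those of Cma1 and Mcpt4 (-0.46 each). Immediate early genes were abundant: all 13 of the list had UMIs and 8 were in at least 55 barcodes, among them Jun at 1529 and Egr3 at 503 CPM. Egr3 was at 3.38 in macrophages.

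Some barcodes were cycling. Using at least 5 UMIs of 7 genes of the G2 and M phases, a limit set with the values seen, 15 of 110 barcodes (13.6%) counted as cycling. They were 1 of 22 and 8 of 25 under GA-aFuc, 3 of 14 and 1 of 19 under GITR/Syn GA-aFuc, 1 of 12 under N297A and 1 of 18 for Untreated, so that GA-aFuc 2 alone held 8. Cycling barcodes were deeper, with a median of 7570 UMIs against 4584 in the others. The limit counts UMIs without scaling for depth, so deeper barcodes reach it more easily. This holds for the numbers per mouse and the levels that follow as well. Cma1 was at 20456 CPM in cycling barcodes and 14922 in the others, Mcpt1 at 8029 in cycling barcodes and 14752 in the others, and Ccl4 at 482 in cycling barcodes and 2592 in the others. Within GA-aFuc 2, Cma1 was at 26551 in 8 cycling barcodes and 18783 in 17 others. Over the other 5 mice, it was at 14552 in 7 cycling barcodes and 14021 in 78 others, so the pooled Cma1 difference rests on GA-aFuc 2. Mcpt1 was at 5891 in cycling barcodes and 18193 in others of GA-aFuc 2, and at 10099.5 in cycling barcodes and 13950 in others of the other 5 mice.

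Human Fcγ receptors, the binding partners of the antibodies' Fc part, were represented by FCGR2A, an activating receptor. It had 266 UMIs in 76 of 110 barcodes and stood at 461 and 416 CPM under GA-aFuc, 467 and 509 under GITR/Syn GA-aFuc, 435 under N297A and 409 for Untreated. Over all mast barcodes the 6 mice lay close together. Without the possible doublets FCGR2A was at 490 and 416 CPM under GA-aFuc, 347 and 531 under GITR/Syn GA-aFuc, 356 under N297A and 379 for Untreated. After thinning to 1000 UMIs, 40.9% of mast barcodes had a FCGR2A UMI (exact 95% interval 31.6% to 50.7%), against 60.0% of macrophages, 3.64% of NK cells and 3.32% of CD8 T cells. Unthinned, the shares were 69.1% in mast barcodes, 99.1% in macrophages, 18.4% in NK cells and 24.4% in CD8 T cells, at median depths of 4950, 14327, 8402.5 and 8505 UMIs. Thinning left out 2 macrophages and 0 barcodes of the other groups.

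FCGR3B and FCGR2B could not be distinguished from background at this depth. FCGR3B was in 13.6% of thinned mast barcodes (exact 95% interval 7.84% to 21.5%), 16.2% of NK cells and 12.2% of CD8 T cells. FCGR2B, the inhibitory receptor, was in 2.73% of mast barcodes, 5.63% of NK cells and 5.35% of CD8 T cells. The FCGR3B interval holds the values of both lymphocyte groups, and the FCGR2B share is below both, so neither is read as expression. FCGR3A had 8 UMIs and was in 1.82% of thinned mast barcodes, 9.60% of NK cells and 4.80% of CD8 T cells. FCGR1A had 9 UMIs in 4 barcodes; its thinned share of 2.73% (exact 95% interval 0.566% to 7.76%) was not distinguishable at this depth from 0.993% in NK cells and 0.738% in CD8 T cells. FCGR2C had 1 UMI. FCGR3B stood at 62.1 and 59.5 CPM under GA-aFuc, 570 and 141 under GITR/Syn GA-aFuc, 58.8 under N297A and 237 for Untreated, and 38 of its 96 UMIs came from 1 barcode of GITR/Syn GA-aFuc 1. C1qa, a complement gene of macrophages, had its highest values in the same 3 mice, at 97.5 and 46.2 under GA-aFuc, 648 and 206 under GITR/Syn GA-aFuc, 129 under N297A and 369 for Untreated. Without the 5 possible doublets FCGR3B was at 66.0 and 59.5 CPM under GA-aFuc, 109 and 90.4 under GITR/Syn GA-aFuc, 61.4 under N297A and 219 for Untreated. C1qa was then at 84.8 and 46.2 under GA-aFuc, 128 and 90.4 under GITR/Syn GA-aFuc, 61.4 under N297A and 43.8 for Untreated. The Untreated mouse was then highest for FCGR3B. Its C1qa was close to that of GA-aFuc 2 and to 39.6 CPM, the level of 3 UMIs in the Untreated mouse over all mast barcodes. The source of the FCGR3B UMIs was not tested. Mouse Fcgr2b was present, with 116 UMIs in 61 barcodes, and after thinning it was in 17.3% of mast barcodes and 32.5% of macrophages. The label hFcgR therefore cannot be read as a lack of all mouse Fcγ receptor RNA. Fcgr3 had 5 UMIs, and Fcgr1 and Fcgr4 had 0. The antibodies' target was close to absent, since Tnfrsf18 had 3 UMIs and its ligand Tnfsf18 had 0.

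**Figure D5:**
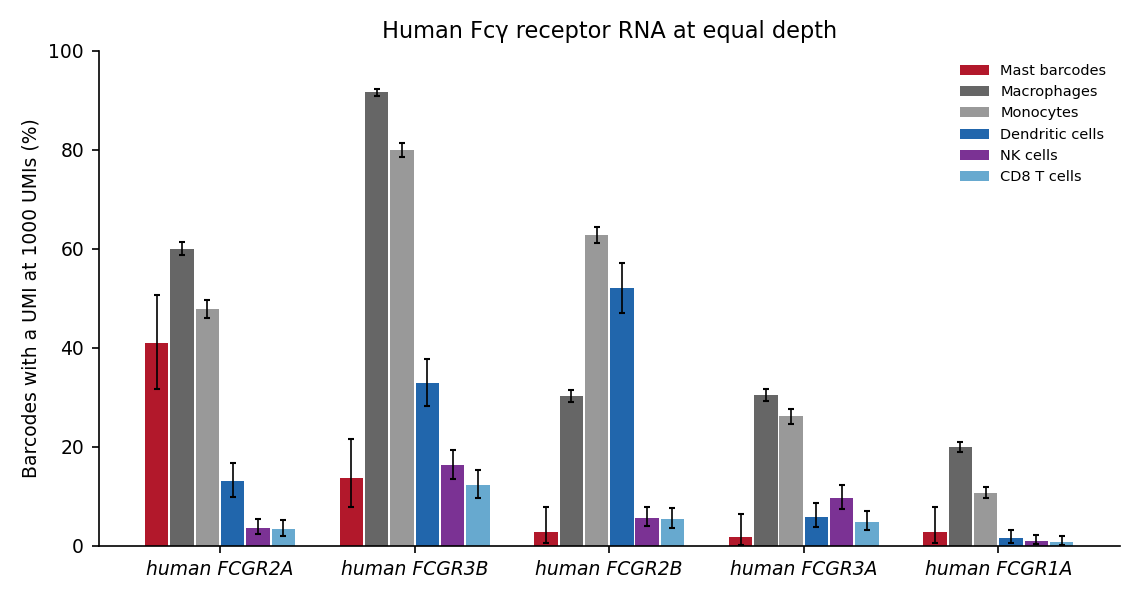
Percentage of barcodes with a UMI after thinning to 1000 UMIs (y axis) for 5 human Fcγ receptor genes (x axis) in mast barcodes and 5 annotated cell types, with exact 95% binomial intervals that cover counting error only. FCGR2A reaches 40.9% in mast barcodes, above NK cells (3.64%) and CD8 T cells (3.32%), whereas the intervals of FCGR3B (13.6%) and FCGR2B (2.73%) in mast barcodes hold the shares of both lymphocyte groups.

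Treatments were compared on counts summed per mouse, with edgeR's quasi-likelihood test in 1 fit of all 6 mice with 2 residual degrees of freedom. Summed depth ran from 75796 to 151371 UMIs per mouse, and 1983 genes could be tested. No gene reached an adjusted p under 0.05 in any of the 4 comparisons, which is 0% of the genes tested in each. At an unadjusted p under 0.05 there were 102 genes for both Fc-enhanced antibodies against N297A and Untreated, 147 for GA-aFuc against Untreated, 100 for GITR/Syn GA-aFuc against Untreated and 129 for GITR/Syn GA-aFuc against GA-aFuc. DESeq2 also called 0, with 17, 19, 14 and 23 genes at an unadjusted p under 0.05 in the same order. The N297A and Untreated arms had 1 mouse each and were assumed to vary like the others. Other settings did make calls, so this does not show that the treatments act alike. Without the 5 possible doublets 9, 11, 7 and 3 genes were called in the same order, and Il13 was among them in the first 3 comparisons. Leaving out 1 GA-aFuc or GITR/Syn GA-aFuc mouse gave 11 to 17 calls for both Fc-enhanced antibodies against N297A and Untreated.

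The genes with the smallest p therefore did not pass, and their values follow as CPM scaled by edgeR. For both Fc-enhanced antibodies against N297A and Untreated, they were Dhx40, Cd74, Cenpa, Ftl1 and Il13. Il13 was at 217 and 291 under GA-aFuc, 76.0 and 234 under GITR/Syn GA-aFuc, 424 under N297A and 876 for Untreated, a log2 fold change of -1.59 ± 0.35 (SE; adjusted p = 0.273). Dhx40, an RNA helicase, was at 76.1 and 96.9 under GA-aFuc, 182 and 221 under GITR/Syn GA-aFuc, 438 under N297A and 380 for Untreated (-1.60 ± 0.32, edgeR adjusted p = 0.218). Both were lower in all 4 mice with an Fc-enhanced antibody than in the other 2. A small p in this same comparison chose them, so that order adds no support. The share of all tested genes with such an order is not given here.

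Against Untreated, GA-aFuc mice had the smallest p for Ccnd3, cyclin D3, at 76.1 and 64.6 against 479 in the Untreated mouse (log2 fold change -2.75 ± 0.45, edgeR adjusted p = 0.0630). Cd74, the invariant chain of MHC class II, was next at 272 and 170 in GA-aFuc mice against 1090.3 in the Untreated mouse (-2.32 ± 0.38, edgeR adjusted p = 0.0630), followed by C1qc, Gzma and Dhx40. Under GITR/Syn GA-aFuc Cd74 was at 198 and 247, against the same Untreated mouse (-2.28 ± 0.40, edgeR adjusted p = 0.135), and Gzma, Il13, Ccl1 and H2-Ab1 came next. Of the 35 UMIs of Gzma, a granule protease of killer cells, 33 came from 1 barcode of the Untreated mouse. Cd74 is abundant in macrophages, at a median of 5195 CPM against 286 in mast barcodes, and 52 of its 170 UMIs came from 1 barcode. Macrophage marker sums were highest in GITR/Syn GA-aFuc 1 (3305 CPM) and next in the Untreated mouse (2177 CPM). Without the 5 possible doublets Cd74 was at 226 and 139 CPM under GA-aFuc, 182 and 192 under GITR/Syn GA-aFuc, 184 under N297A and 204 for Untreated, so the excess in the Untreated mouse was not seen without them. Between GITR/Syn GA-aFuc and GA-aFuc mice the smallest p were those of C1qc, Ifitm3, C1qa, Apoe and FCGR3B, of which C1qc was at 487 and 234 under GITR/Syn GA-aFuc, against 43.5 and 48.5 under GA-aFuc (2.90 ± 0.50, edgeR adjusted p = 0.175).

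Gene groups gave the same picture of 0 calls. Of the 12 proteases, 8 were tested, among them Cpa3, which chose the barcodes. Their median log2 fold change was 0.18 for both Fc-enhanced antibodies against N297A and Untreated, beside 0.04 over all 1983 genes. Against Untreated it was 0.24 for GA-aFuc (all genes 0.01) and -0.22 for GITR/Syn GA-aFuc (all genes 0.02). For GITR/Syn GA-aFuc against GA-aFuc it was -0.43 (all genes 0.03). The 14 tested of 22 cytokines and chemokines had medians of -0.28, -0.45, -0.53 and -0.26 in that order of comparisons. The 12 tested of 15 genes of FcεRI and Kit signalling had medians of -0.12, -0.16, -0.14 and -0.07, with single genes on either side of 0. The 10 tested of 15 cell cycle genes had medians of 0.94, 1.34, 1.34 and 0.22, with 8 of the 15 cycling barcodes in GA-aFuc 2. The 11 tested of 17 interferon response genes were at 0.44, -0.04, 0.11 and 0.30. The 4 tested of 7 MHC class II genes were at -1.08, -0.96, -1.76 and -0.36, and 6 tested macrophage markers of 9 at -0.47, -2.10, -0.08 and 2.18. Single barcodes weigh on these 2 lists. Of 126 C1qa UMIs 43, and of 49 Lyz2 UMIs 27, each came from 1 barcode of GITR/Syn GA-aFuc 1. Without the possible doublets Cd74 ran from 139 to 226 CPM over the mice. Medians of the 2 lists without them are not given here.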

How the data were processed

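Values are whole-number UMI counts per gene and barcode, deposited as an unfiltered matrix written by Cell Ranger 9.0.0, per the file headers. Human and mouse genes were counted together (GRCh38 and GRCm39, per the submitters' processing notes). Cell types came from the authors' deposited annotation; hashtags gave the mouse. The members and gene lists were chosen with earlier results of these data known. Levels are CPM, UMIs per 1000000 gene UMIs of a mouse's mast barcodes. Shares of barcodes with a UMI were compared after thinning each barcode to 1000 UMIs. No doublet caller was run. Counts were summed per mouse and tested with edgeR 4.0.16 in R 4.3.3 (quasi-likelihood, TMM, Benjamini-Hochberg threshold 0.05), checked on simulated data, with DESeq2 1.42.0 as alternative. Named genes are those with the smallest p in each comparison and members of the lists. Shares per mouse were tested by exact permutation. Alternatives varied the members, scaling, filters and mice left out. Mice of 1 treatment are separate animals in 1 library. Summed depth per mouse was 75796 to 151371 UMIs. Library 1 was not analysed here.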

Additional observations from a re-analysis of the deposited data

Results flagged for a closer look

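A further 17 unannotated barcodes held at least 10 Cpa3 UMIs without a clear hashtag and so entered no comparison. Their median depth was 9707 UMIs, and the top hashtag had a median of 65.0% of hashtag UMIs. Cpa3 was at 3095 CPM in them, Mcpt2 at 13196, Cma1 at 6601 and Kit at 497. C1qa was at 2366, C1qb at 2431 and Apoe at 2296. By complement and Cd3e UMIs, 9 of the 17 (52.9%) were possible doublets, against 4.55% of mast barcodes.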

How the results depend on the processing

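Under the main settings 0 genes were called in each comparison, and counts below are given for both Fc-enhanced antibodies against N297A and Untreated, then GA-aFuc against Untreated, GITR/Syn GA-aFuc against Untreated, and GITR/Syn GA-aFuc against GA-aFuc. Calls numbered 10, 8, 8 and 38 with a hashtag share of 75%, 9, 11, 7 and 3 without possible doublets, 10, 14, 8 and 19 without the filter on low counts, and 7, 19, 7 and 16 with sex as a term. With at least 20 Cpa3 UMIs they were 4, 0, 4 and 6, and with equal numbers of barcodes 3, 1, 3 and 0. Fits of the compared treatments alone called 16 for GA-aFuc and 13 for GITR/Syn GA-aFuc against Untreated. DESeq2, other scaling, a stricter filter, mouse genes alone and a limit of 5 Cpa3 UMIs gave 0. Leaving out 1 mouse gave 11 to 17, 4 to 22, 2 to 18 and 0 to 33. The prior degrees of freedom were 9.83 in the main fit and 72.1 without possible doublets. They were infinite without the filter on low counts, with sex as a term and in most fits without 1 Fc-enhanced mouse. With equal numbers of barcodes they were 10.5. Across alternatives the calls included Xist, which marked the female mice, in every comparison. Gzma, with 33 of its 35 UMIs in 1 barcode, was called for GA-aFuc and for GITR/Syn GA-aFuc against Untreated. The cause of the calls was not tested. Without possible doublets Il13 was called in the first 3 comparisons, at -1.72 (edgeR adjusted p = 0.00205), -1.89 (0.0237) and -2.68 (0.000763), and Cd74 was not called. At 95% of hashtag UMIs the Untreated mouse kept 3 barcodes, so only the last comparison was fitted, with 0 calls. The exact permutation test of shares gave p = 0.0222 with at least 3 of the other 5 markers and 0.111 to 0.578 under other member definitions and denominators, and 0.2 to 0.5 without 1 mouse. Of 48 levels, 47 moved by less than the spread between mice, taken as the pooled SD within the GA-aFuc and GITR/Syn GA-aFuc groups. The exception was FCGR2A, with a median over mice of 448 CPM that fell to 398 without possible doublets. The 90 correlations under alternatives chosen after seeing the data kept their sign. Shallow sums, 1 N297A mouse and 1 Untreated mouse limit all comparisons. No paired analysis was possible because the labels number no mice within a treatment; numbers used here follow the order of the annotation and pair no mice.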

Other observations

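Human genes other than Fcγ receptors were also counted in mast barcodes. Of 777 human UMIs, 416 (53.5%) were from FCGR genes, against 83.1% in annotated cells. PLCG2, a phospholipase of immune receptor signalling, had 73 UMIs in 45 barcodes and stood at 123 CPM in mast barcodes and 81.8 in annotated cells. Its Spearman correlation with Ccl4 across the 110 barcodes of 1 library was 0.40. This pair was picked because PLCG2 had rank 4 among the highest correlations with Ccl4. Whether the PLCG2 UMIs came from human or mouse RNA was not tested. DUSP12 was at 126 CPM in mast barcodes and 204 in annotated cells, FCRLB at 99.3 and 131, and ATF6 at 53.8 and 246. The human genes DUSP12, FCRLB and ATF6 are neighbours of the FCGR cluster, and PLCG2 lies elsewhere.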
